A study of Mus musculus with 9 samples.

Results

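The mitochondrial chromosome of the mouse carries 13 protein-coding genes, 2 ribosomal RNA genes and 22 transfer RNA genes. These 37 genes were taken as the genes whose symbol begins with mt- among the 56748 rows of a matrix of FPKM (fragments per unit length of transcript and unit of sequencing depth). The 3 classes were treated apart. RNA was sequenced from granulosa cells, the somatic cells that surround the oocyte, isolated from ovaries of wild type female C57BL/6 mice. Control mice are called vehicle-treated in the design text and untreated in the treatment protocol. CTX mice received cyclophosphamide at 120 mg/kg, an alkylating drug injected here to model premature ovarian failure. CTX_HCQ mice received the same injection and, by mouth, hydroxychloroquine at 40 mg/kg a day, a weak base that collects in lysosomes, from 7 days before the injection until 4 weeks after it. The ages of the mice are not in the labels. Each group had 3 libraries. The labels do not say whether these came from separate mice, the same mice or pools, so the p-values below measure only the spread between these libraries.

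Mitochondrial DNA is transcribed on both strands into long RNAs, which are cut at the transfer RNA genes that lie between most of the other genes. Most of the mRNAs then receive a short poly(A) tail. Their 13 proteins are subunits of the respiratory chain complexes I, III and IV and of the ATP synthase, complex V, which also hold many subunits encoded in the nucleus. In steroid-producing ovarian cells the first step of steroid synthesis takes place inside the mitochondrion. Messenger RNA was purified here with poly-T beads. All values, those of ribosomal and transfer RNA in particular, thus describe what those beads retained, not the content of the cell.

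The FPKM values could be turned back into whole reads for all 37 genes and for 13573 of 14431 tested genes, with 13367582 to 17131824 recovered reads per library. The granulosa cell markers were detected in every library (10 of 10, summed FPKM 4302 to 7174). CTX replicate 3 stood apart: its summed FPKM was the highest at 378232, its share of mitochondrial reads was the highest, and 8 markers of oviduct and ciliated epithelium summed to 423 FPKM there. These markers summed to 149 and 97.1 in the other CTX libraries, to 15.8 to 105 in Control and to 19.1 to 29.4 in CTX_HCQ, and 7 of the 8 were detected in all libraries. Control replicate 1, at 105, lay above CTX replicate 2. Markers of stroma summed to 80.1 to 98.6 FPKM in CTX, below all Control libraries (117 to 142), and to 74.3 to 160 in CTX_HCQ. Markers of theca and steroidogenic cells summed to 5600 to 7748 in CTX, above all CTX_HCQ libraries (2482 to 5559), and to 3333 to 6095 in Control. All 5 and 6 of these markers were detected in every library. Among the theca and steroidogenic markers only Hsd3b1 separated CTX (4458 to 5655 FPKM) from CTX_HCQ (1851 to 4170). Cyp17a1, Cyp11a1, Star, Insl3 and Lhcgr overlapped between these groups, as did Krt7 of the oviduct markers. Of the stroma markers, Col1a2, Pdgfra and Lum overlapped between CTX and Control. Summed markers of endothelium, erythroid cells, macrophages, lymphocytes, smooth muscle, oocytes and adipocytes overlapped between the groups in each comparison. The erythroid markers summed to 3310 FPKM in Control replicate 3 and to 293 to 860 in the other libraries. The part of any of these cells in the results below was not tested. CTX_HCQ replicate 3 had the lowest depth and the lowest summed FPKM, 246449.

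Several mitochondrial genes have near-identical copies in the nuclear genome, which matters for reading their levels. In the GENCODE M21 transcripts (GRCm38), 7 annotated nuclear genes matched a mitochondrial gene at 99% identity or more, all in a single block on chromosome 1. The genes mt-Co2, mt-Atp6, mt-Co3 and mt-Nd4l were copied at 100% identity over 681 of 684, 678 of 681, 783 of 784 and 294 of 297 bases, in Gm28661, Gm10925, Gm28437 and Gm10222. The gene mt-Nd3 was copied in Gm28438 over 345 of 348 bases with the substitution T3C, counted from the first base of mt-Nd3. Only part of mt-Co1 (483 of 1545 bases, in Gm29216) and of mt-Nd4 (876 of 1378 bases, in Gm28439) was copied in this block. In 5 of the 6 gaps between neighbouring copies the spacing equalled that of the mitochondrial genes, and the remaining gap was 74 bases against 73. At this identity, no annotated copy of 60 or more matched bases was found for mt-Nd1, mt-Nd2, mt-Nd5, mt-Nd6, mt-Cytb or mt-Atp8, called uncopied below. Sequence between the annotated copies was not searched, for these or for transfer RNA genes. The gap between the copies of mt-Co2 and mt-Atp6 was 233 bases, as between these genes in the mitochondrial genome. There mt-Atp8 starts in that gap, and its last 43 bases belong to mt-Atp6 and so to Gm10925. Whether the block holds the rest of mt-Atp8 was not tested. The sources used here do not say how reads that match both places were counted. The pairs of sequences below, 5′ to 3′, show how little tells gene and copy apart, with differing bases in capitals. For mt-Nd3 and Gm28438 the first 33 bases are shown. For mt-Co1 and Gm29216 the stretch starts at base 1054 of mt-Co1, and the match begins at base 1063, after which A1066T is the single substitution.
mt-Nd3: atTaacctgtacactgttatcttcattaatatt
Gm28438: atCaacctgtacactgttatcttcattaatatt
mt-Co1: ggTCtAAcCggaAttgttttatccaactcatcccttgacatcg
Gm29216: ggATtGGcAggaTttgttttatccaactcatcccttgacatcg

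Reads of some neighbouring genes cannot be assigned to 1 gene either, because the genes share bases. The end of mt-Atp8 overlaps the start of mt-Atp6 by 43 bases, and the end of mt-Nd4l overlaps the start of mt-Nd4 by 7 bases. The overlaps are printed in capitals within 20 flanking bases on each side, from the same transcripts.
mt-Atp8 and mt-Atp6: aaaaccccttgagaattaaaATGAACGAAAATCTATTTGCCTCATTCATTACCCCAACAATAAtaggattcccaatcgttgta
mt-Nd4l and mt-Nd4: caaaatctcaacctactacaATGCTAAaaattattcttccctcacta

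Levels of the protein-coding genes followed these classes of sequence. The 5 uncopied genes other than mt-Atp8 averaged 1689 to 8275 FPKM over the 9 libraries, and the partly copied mt-Nd4 and mt-Co1 averaged 3192 and 19330. The 5 genes copied over their whole length averaged 113 to 447 FPKM. The short, overlapping mt-Atp8, for which the block was not fully searched, was the lowest, at 1.91 to 34.6 FPKM from 7 to 116 reads. The lowest library value of any uncopied gene other than mt-Atp8 was 842 FPKM, in Control replicate 2. The highest of any wholly copied gene was 1847, in CTX replicate 3. Within each library the wholly copied genes lay below the uncopied genes other than mt-Atp8. No test was made of this pattern, which was noticed in these data.

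**Figure D1:**
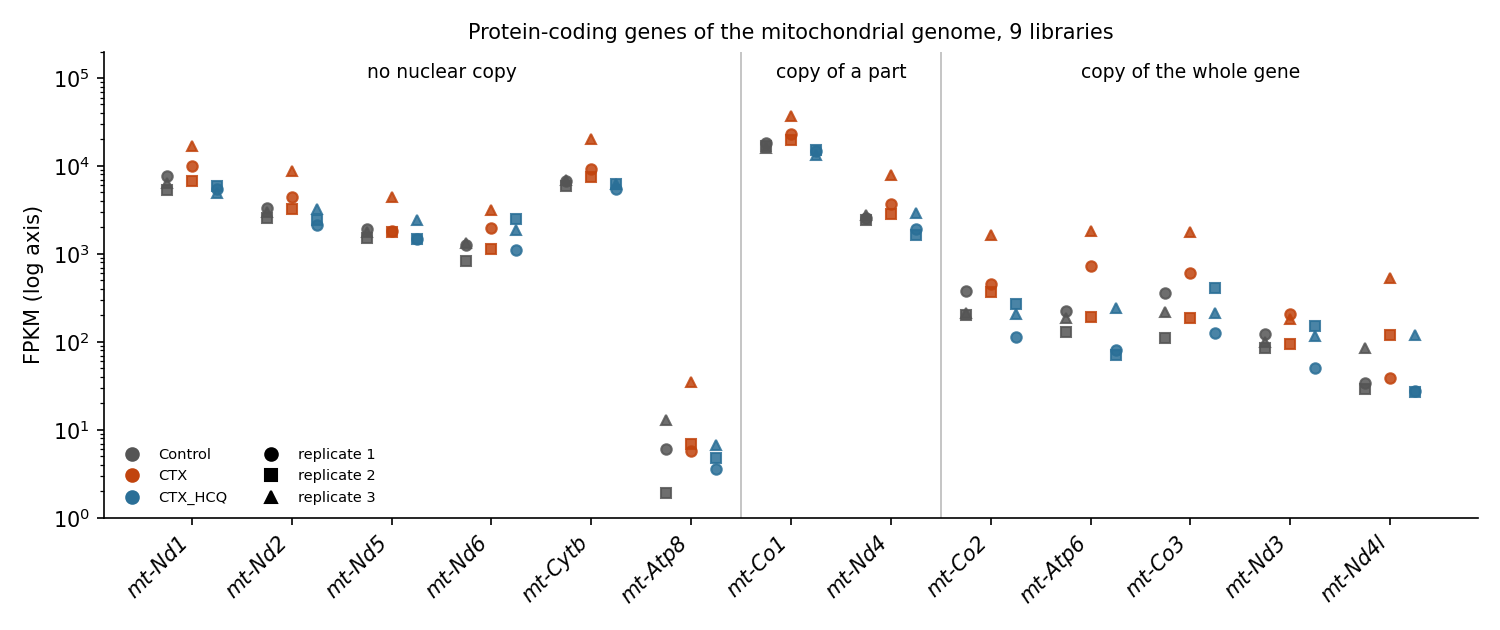
FPKM of the 13 protein-coding genes in each library (log axis), coloured by group, with a symbol for each replicate. Genes are ordered by whether an annotated nuclear copy at 99% identity or more was found. Within each library the 5 genes copied over their whole length sit below the uncopied genes other than mt-Atp8. CTX replicate 3 is the highest library for every gene except mt-Nd3.

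As a class, the protein-coding genes took a larger share of FPKM in every CTX library than in every Control library. The Control libraries held 14.1%, 12.5% and 12.8% of their summed FPKM in these genes, the CTX libraries 16.4%, 14.5% and 27.5%, and the CTX_HCQ libraries 11.2%, 11.0% and 14.6%. Control and CTX did not overlap, while CTX_HCQ replicate 3 reached past CTX replicate 2. The 6 uncopied genes alone took 6.86%, 5.64% and 6.40% in Control, 7.97%, 6.76% and 14.1% in CTX, and 5.35%, 5.68% and 7.64% in CTX_HCQ. For these genes CTX replicate 2 lay below Control replicate 1, so Control and CTX overlapped. Over the same libraries, the summed oviduct markers and the summed theca and steroidogenic markers lay above CTX_HCQ in all CTX libraries. The summed stroma markers lay below Control in all CTX libraries. Of the theca and steroidogenic markers only Hsd3b1 did so singly, and not every oviduct or stroma marker did, as given above. The mean shares were 13.1% ± 0.875 (SD, n = 3) in Control, 19.4% ± 7.05 in CTX and 12.3% ± 2.03 in CTX_HCQ. The difference of 6.31 percentage points between CTX and Control had an exact permutation p of 0.1, two-sided, the smallest that 3 libraries against 3 allow, and 0.48 after adjustment over 12 such tests. CTX_HCQ differed by -7.20 points from CTX (exact permutation p = 0.2) and by -0.885 points from Control (exact permutation p = 0.6). Without CTX replicate 3 the difference between CTX and Control was 2.28 points, and that between CTX_HCQ and CTX was -3.16. The difference between CTX_HCQ and Control ran from -2.05 without CTX_HCQ replicate 3 to -0.266 without CTX_HCQ replicate 2. Of recovered reads, which are not scaled to length, the class took 4.96% to 5.75% in Control, 6.03% to 13.4% in CTX and 4.38% to 5.27% in CTX_HCQ, so on this scale CTX overlapped neither group. In RNA from bulk cells, fewer cells of a type and less RNA per cell cannot be told apart.

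**Figure D2:**
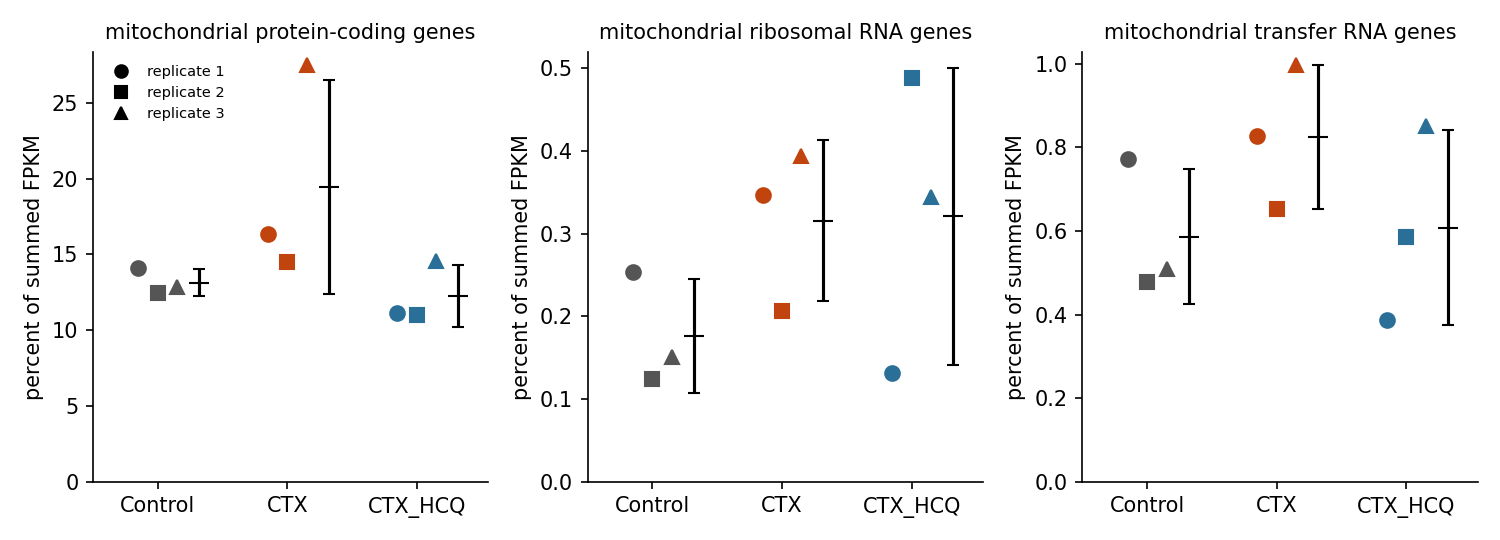
Percent of each library's summed FPKM in the protein-coding, ribosomal RNA and transfer RNA genes of the mitochondrial genome, with points for replicates and black bars for the group mean ± SD (n = 3). In the protein-coding panel all CTX points, 14.5% to 27.5%, lie above the Control points, 12.5% to 14.1%, and CTX replicate 3 stands alone at the top.

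CTX was compared with Control to ask what cyclophosphamide changed. None of the 13 protein-coding genes passed (limma on log2(FPKM + 1), Benjamini-Hochberg adjusted p = 0.639 to 0.735), and none of the 14431 tested genes did (0%). At an unadjusted p under 0.05 there were 2 of 13, mt-Atp6 and mt-Co2, against 1126 of all tested genes (7.80%), and limma-voom on recovered reads called 0 genes with 1078 at an unadjusted p under 0.05. All 13 fitted log2 fold changes were positive, with a median of 0.77, where the median of all tested genes was 0.00 and 49.5% were positive; quantile normalization, which forces the top ranks of all libraries to equal values, left 9 positive and mt-Co1, mt-Cytb, mt-Nd1 and mt-Nd2 at exactly 0. In 3 of the 13, mt-Co1, mt-Cytb and mt-Nd4, every CTX library lay above every Control library, against 8.72% of all tested genes. Without CTX replicate 3 the 13 remained positive, with a median of 0.37, and 3 were separate against 15.4% of tested genes. Without CTX replicate 2, the CTX library with the lowest share of the class, the median was 1.09 and 10 were separate (18.5%), and without Control replicate 1 there were 7 (19.1%).

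The question of the second comparison was whether hydroxychloroquine altered the picture after cyclophosphamide. Again 0 of 13 passed by limma (adjusted p = 0.632 to 0.974), as did 0 of all tested genes (0%). At an unadjusted p under 0.05 there were 2 of 13, the same pair, against 785 of all tested genes (5.44%), and voom called 0 genes with 716 below that p. All 13 fitted differences were negative, with a median of -0.98 against 0.01 for all genes; with quantile normalization mt-Co1 stood at 0, mt-Nd6 at 0.29 and mt-Cytb at 0.05, and the median was -0.40. In 5 of them, mt-Co1, mt-Co2, mt-Cytb, mt-Nd1 and mt-Nd2, every CTX_HCQ library lay below every CTX library, against 4.57% of all tested genes. Without CTX replicate 3 the median was -0.58, 12 of 13 were negative, and 5 were separate against 10.4% of tested genes. The separate genes numbered 7 without CTX replicate 1 (6.27% of tested genes), 9 without CTX replicate 2 (7.97%) and 10 without CTX_HCQ replicate 3 (7.40%). This comparison shares its CTX libraries with the previous one, so a high CTX library moves both. Between CTX_HCQ and Control 0 of 13 passed (adjusted p = 1 by limma for each, 0% of tested genes called, 312 genes or 2.16% at an unadjusted p under 0.05, 266 with voom and 0 called by it), 4 of 13 were positive, and the median was -0.17. Only mt-Co1 was separate there, lower in CTX_HCQ, against 3.06% of tested genes. Leaving out 1 library moved this median between -0.05 (6 positive, without CTX_HCQ replicate 1) and -0.32 (1 positive, without Control replicate 2). Without CTX_HCQ replicate 3 there were 6 genes separate and lower (7.31% of tested genes), and without Control replicate 2 there were 3 (5.27%).

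**Figure D3:**
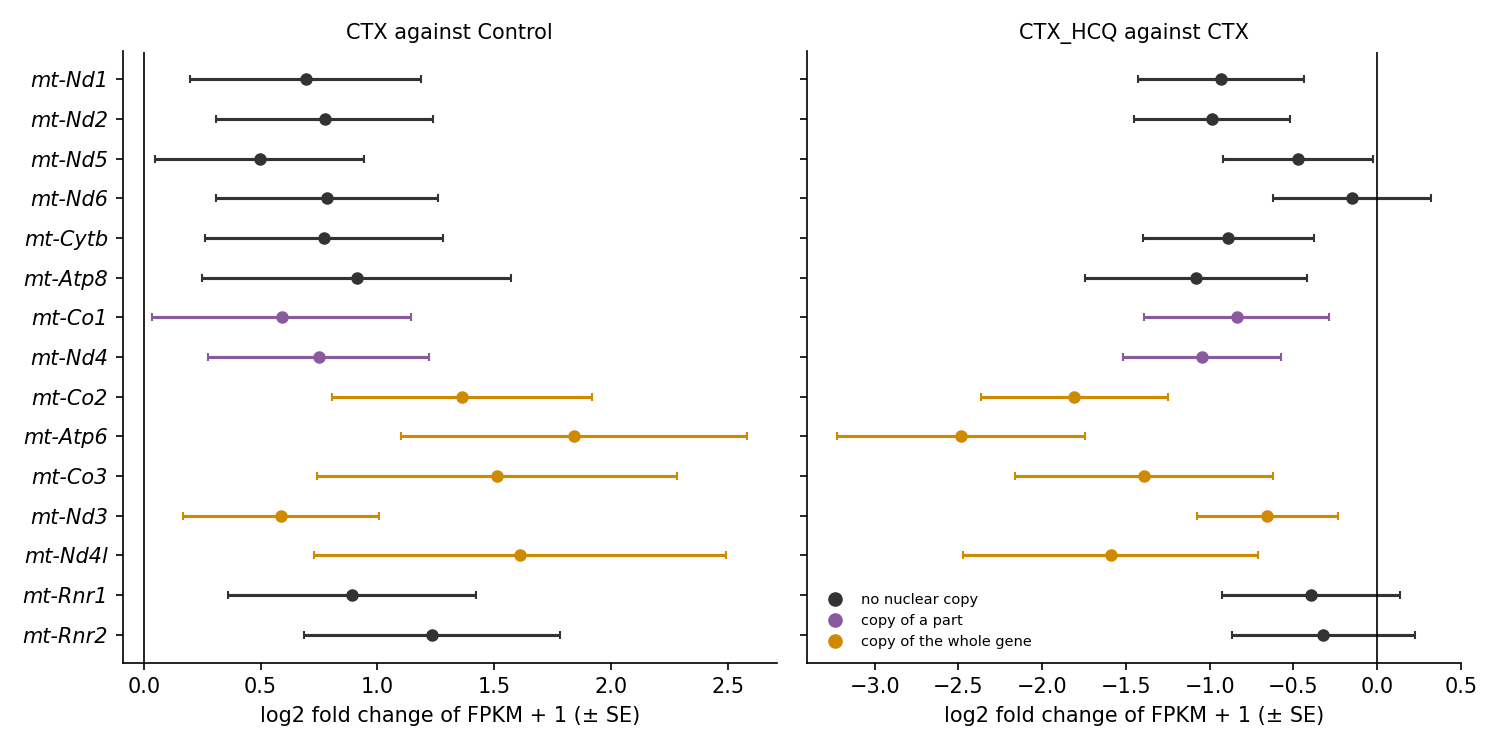
Fitted log2 fold changes of FPKM + 1 with their SE (limma) for the protein-coding and ribosomal RNA genes, CTX against Control on the left and CTX_HCQ against CTX on the right, coloured by nuclear copy. All points lie right of 0 on the left and left of 0 on the right, which quantile normalization changes for mt-Co1, mt-Cytb, mt-Nd1, mt-Nd2 and mt-Nd6 in 1 comparison or both, no gene passed at an adjusted p of 0.05, and the widest intervals belong to wholly copied genes.

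The complex I subunits are the membrane-embedded proton-pumping arm of NADH dehydrogenase. Its best-measured members were mt-Nd1, mt-Nd2, mt-Nd4 and mt-Nd5. The mt-Nd1 levels were 7741, 5393 and 6476 FPKM in Control, 10018, 6804 and 16753 in CTX, and 5484, 5992 and 4987 in CTX_HCQ. Thus CTX replicate 2 lay within the Control range, and all CTX_HCQ libraries lay below all CTX libraries. The fitted log2 difference was 0.69 (SE 0.50, adjusted p = 0.685, limma) for CTX against Control and -0.93 (SE 0.50, adjusted p = 0.906) for CTX_HCQ against CTX. The mt-Nd2 levels were 3327, 2534 and 3013 in Control, 4433, 3254 and 8805 in CTX, and 2113, 2415 and 3217 in CTX_HCQ, with CTX_HCQ again below CTX throughout. The mt-Nd4 levels were 2588, 2444 and 2757 in Control, 3717, 2834 and 7853 in CTX, and 1944, 1634 and 2957 in CTX_HCQ, so all CTX libraries lay above Control and 1 CTX_HCQ library lay above CTX replicate 2. The gene mt-Nd5 differed least in CTX against Control among the 13 (log2 difference 0.50, SE 0.45). Its levels were 1896, 1523 and 1793 in Control, 1843, 1788 and 4422 in CTX, and 1495, 1484 and 2463 in CTX_HCQ, and without CTX replicate 3 the CTX difference was 0.07.

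The remaining subunits of complex I were either low and copied, or on the other strand. The gene mt-Nd3 was the only protein-coding gene not highest in CTX replicate 3: it stood at 123.4, 84.2 and 100.2 FPKM in Control, 207, 95.3 and 181 in CTX, and 51.1, 151 and 116 in CTX_HCQ, and the groups overlapped. Its neighbour mt-Nd4l stood at 34.3, 29.1 and 85.6 in Control, 39.2, 120.4 and 537 in CTX, and 27.6, 26.8 and 119.8 in CTX_HCQ. CTX replicate 3 held 6.73 times the mean of the other CTX libraries for mt-Nd4l, the largest such ratio of the 13, where mt-Nd3 had the smallest, 1.196.

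The gene mt-Nd6 is the protein-coding gene of the light strand, opposite to the other 12. Reads there cannot be told from antisense RNA unless the library keeps strand, and the sources used here do not say whether it did. How far the poly-T beads retained mt-Nd6 RNA was not tested. Its levels were 1259, 842 and 1320 FPKM in Control, 1987, 1141 and 3158 in CTX, and 1115, 2480 and 1896 in CTX_HCQ. CTX_HCQ replicates 2 and 3 lay above all Control libraries and CTX_HCQ replicate 1 within their range. Its difference between CTX_HCQ and CTX was -0.15 (SE 0.47, adjusted p = 0.974, limma), and that between CTX_HCQ and Control was 0.63 (SE 0.47, adjusted p = 1). As a share of the protein-coding FPKM it took 2.92%, 2.34% and 3.38% in Control, 3.52%, 2.601% and 3.04% in CTX, and 3.40%, 6.84% and 5.27% in CTX_HCQ. Every CTX_HCQ library lay above every Control library, a difference of 2.29 percentage points (exact permutation p = 0.1, adjusted p = 0.881 over 39 tests), and CTX_HCQ overlapped CTX. Against Control, the log2 difference of mt-Nd6 was 0.38 without CTX_HCQ replicate 2, 0.43 without Control replicate 2 and 0.95 without CTX_HCQ replicate 1, and the share difference was 1.46 points without CTX_HCQ replicate 2.

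Complex III has a single mitochondrial subunit, cytochrome b, encoded by mt-Cytb. It stood at 6724, 5979 and 6911 FPKM in Control, 9231, 7494 and 20040 in CTX, and 5529.9, 6317 and 6248 in CTX_HCQ. CTX thus lay above both other groups in all libraries. The difference was 0.77 (SE 0.51, adjusted p = 0.672, limma) for CTX against Control and -0.89 (SE 0.51, adjusted p = 0.906) for CTX_HCQ against CTX.

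Of the complex IV subunits, mt-Co1 encodes the catalytic core of cytochrome c oxidase. This gene had the highest FPKM of the genome, with 35.6% to 46.4% of the protein-coding FPKM. Such shares, here and for other genes, depend on how reads that also match nuclear copies were counted, which is not given. The mt-Co1 levels were 18463, 16672 and 16026 FPKM in Control, 23199, 19583 and 37011 in CTX, and 14714, 15012 and 13288 in CTX_HCQ. The 3 groups did not overlap in any pair, with CTX highest and CTX_HCQ lowest. The fitted differences were 0.59 (SE 0.55, adjusted p = 0.735, limma) and -0.84 (SE 0.55, adjusted p = 0.906). The gene mt-Co2, whose product accepts electrons from cytochrome c, stood at 378, 200.03 and 215 in Control, 460.04, 373 and 1622 in CTX, and 113, 271 and 210 in CTX_HCQ. All CTX_HCQ libraries lay below all CTX libraries, and the difference of -1.81 (SE 0.56) had an adjusted p of 0.682 by limma. Its share of the protein-coding FPKM, 0.815%, 0.850% and 1.56% in CTX against 0.345%, 0.746% and 0.583% in CTX_HCQ, was the only share without overlap in that comparison (exact permutation p = 0.1, adjusted p = 0.881 over 39 tests). The gene mt-Co3 stood at 356, 111 and 218 in Control, 611, 185 and 1790.4 in CTX, and 126, 415 and 212 in CTX_HCQ, and its groups overlapped.

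In complex V, mt-Atp6 had the largest fitted differences of the 13 genes in both comparisons with CTX. It encodes a subunit of the proton channel of ATP synthase, and stood at 223, 131 and 189 FPKM in Control, 731, 189.7 and 1847 in CTX, and 81.6, 70.8 and 246 in CTX_HCQ. CTX replicate 2 lay inside the Control range and below CTX_HCQ replicate 3. The differences were 1.84 (SE 0.74, adjusted p = 0.639, limma) for CTX against Control and -2.49 (SE 0.74, adjusted p = 0.632) for CTX_HCQ against CTX, and without CTX replicate 3 they were 1.07 and -1.72. The gene mt-Atp8 stood at 6.06, 1.91 and 13.1 in Control, 5.83, 6.92 and 34.6 in CTX, and 3.55, 4.77 and 6.71 in CTX_HCQ, with overlap throughout.

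The nuclear copies were read beside the genes they match. All 7 copies passed the filter on low values, and 4 of them, Gm29216, Gm10925, Gm28661 and Gm10222, were higher in every CTX library than in every Control library, against 8.72% of all tested genes. In CTX_HCQ, 5 of the 7 (the same 4 and Gm28437) were lower than in every CTX library, against 4.57%. None of the 7 passed by limma (adjusted p = 0.639 to 0.813 and 0.394 to 0.949), with 4 and 5 at an unadjusted p under 0.05, against 7.80% and 5.44% of all tested genes. The copies share a block and a sequence source with each other and with the mitochondrial genes, so they are not independent observations.

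The copy with the largest difference between CTX and Control was Gm29216 (ENSMUSG00000101249), the copy of the last part of mt-Co1. It stood at 115, 93.6 and 111 FPKM in Control, 462, 473 and 287 in CTX, and 101, 149.9 and 148 in CTX_HCQ, from 821 to 3959 reads. CTX lay above both other groups in all libraries, with means of 407 ± 105 (SD, n = 3) against 106 ± 11.2 and 133 ± 28.0. The log2 difference of CTX against Control was 1.90 (SE 0.28), which had the smallest p of all 14431 tested genes (4.7e-05 by limma, adjusted p = 0.639). For CTX_HCQ against CTX it was -1.60 (SE 0.28, adjusted p = 0.394, limma). Leaving out any single library gave 1.77 to 2.13 and -1.83 to -1.41. With library weights in limma, Gm29216 passed in both comparisons (adjusted p = 0.00594 and 0.0292), among 648 genes called in the first (4.49% of those tested) and as the only gene called in the second (0.00693%, as for the single gene called between CTX_HCQ and Control). Within CTX it ran against its gene: CTX replicate 3 held the most mt-Co1 and the least Gm29216, and mt-Co1 exceeded its copy 129 times there against 50.2 and 41.4 times in the other CTX libraries. In Control the excess was 145 to 178 times.

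Of the other copies, Gm10925 averaged 87.0 ± 17.6 FPKM (SD, n = 3) in Control, 290 ± 176 in CTX and 82.3 ± 37.5 in CTX_HCQ, and Gm10222 averaged 28.3 ± 6.06, 72.7 ± 17.8 and 25.1 ± 15.7. Gm28661 averaged 80.1 ± 3.37, 163 ± 58.1 and 79.6 ± 11.4. With library weights Gm10925 and Gm10222 also passed for CTX against Control (limma adjusted p = 0.0394 and 0.0369). Gm28438, the copy of mt-Nd3, showed another order, with 19.7 ± 3.57, 40.7 ± 24.2 and 69.2 ± 47.0, and in CTX_HCQ replicate 1 it exceeded mt-Nd3 itself (119 against 51.1 FPKM). Gm28439, the copy of part of mt-Nd4, averaged 28.9, 34.8 and 29.8 with overlap in each comparison. Across the wholly copied genes, the gene held 0.430 to 8.07 times the FPKM of its copy.

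**Figure D4:**
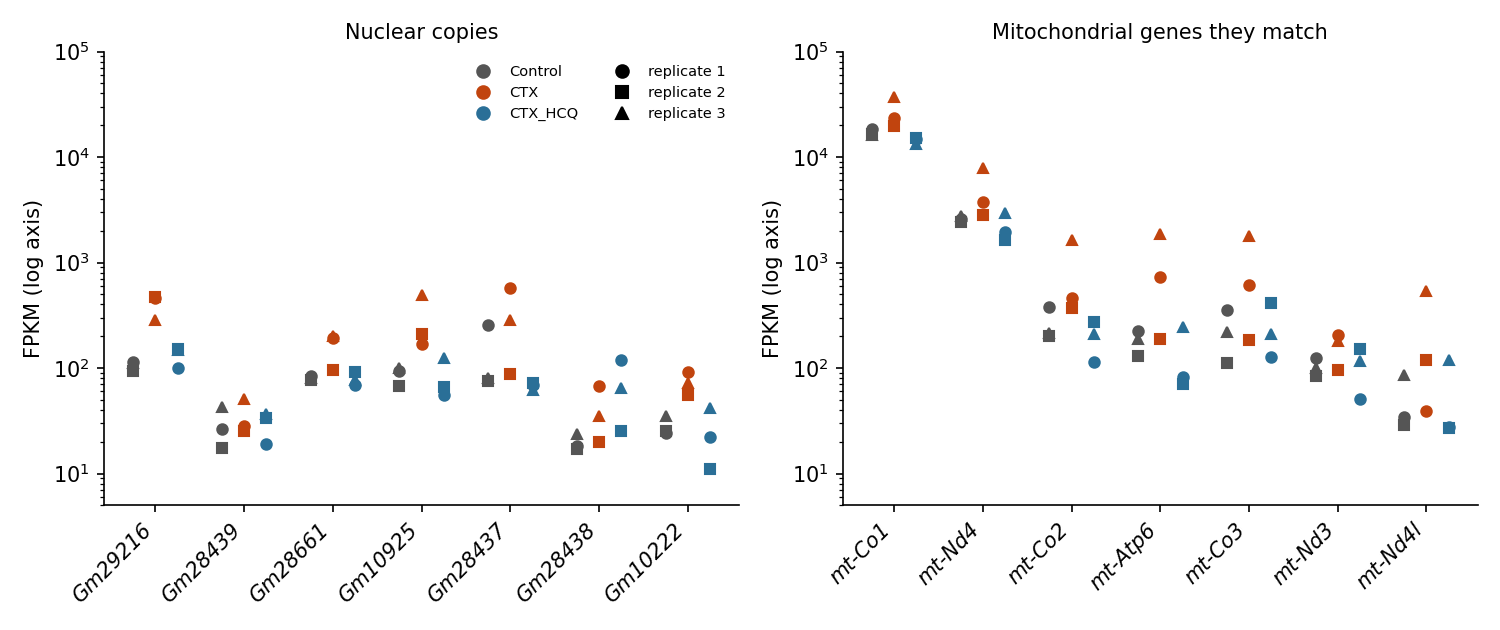
FPKM (log axes) of the 7 nuclear copies on the left and of the mitochondrial genes they match on the right, in the same order, coloured by group with a symbol for each replicate. Gm29216 lies at 287 to 473 in CTX and at 93.6 to 149.9 in the other groups, while mt-Co1 spreads less between groups and peaks in CTX replicate 3.

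Among the ribosomal RNA genes, mt-Rnr1 encodes the 12S RNA of the small and mt-Rnr2 the 16S RNA of the large mitochondrial ribosomal subunit. Their share of summed FPKM was 0.254%, 0.124% and 0.151% in Control, 0.347%, 0.207% and 0.394% in CTX, and 0.131%, 0.488% and 0.344% in CTX_HCQ. The CTX_HCQ libraries held the highest value of all 9 and overlapped both other groups. Exact permutation tests gave p = 0.2 for CTX against Control (difference 0.140 percentage points), p = 1 for CTX_HCQ against CTX and p = 0.3 for CTX_HCQ against Control. The gene mt-Rnr2 stood at 310.4, 142 and 191 FPKM in Control, 540.3, 292 and 703 in CTX, and 178, 780.4 and 408 in CTX_HCQ, and its difference of 1.23 (SE 0.55) for CTX against Control had an adjusted p of 0.639 by limma. For mt-Rnr1 the levels were 465, 216 and 269, then 657, 334 and 787, then 209, 827 and 439, and the difference was 0.89 (SE 0.53, adjusted p = 0.653, limma). Relative to the protein-coding FPKM the ribosomal RNAs took 0.995% to 1.80% in Control, 1.43% to 2.12% in CTX and 1.18% to 4.43% in CTX_HCQ, and the log2 ratio did not differ beyond its spread (exact permutation p = 0.2 to 0.6 over the 3 comparisons). In CTX_HCQ replicate 2 the ribosomal RNAs, at 4.43%, and mt-Nd6 stood at their highest relative to the other genes.

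The proportion of the ribosomal RNAs to each other, a ratio picked after the values were seen and so given with no test, varied little within groups. mt-Rnr2 stood at 0.667, 0.658 and 0.711 times mt-Rnr1 in Control, at 0.822, 0.872 and 0.893 times in CTX, and at 0.850, 0.944 and 0.930 times in CTX_HCQ. All 6 libraries of cyclophosphamide-treated mice lay above all Control libraries, CTX replicate 3 included.

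**Figure D5:**
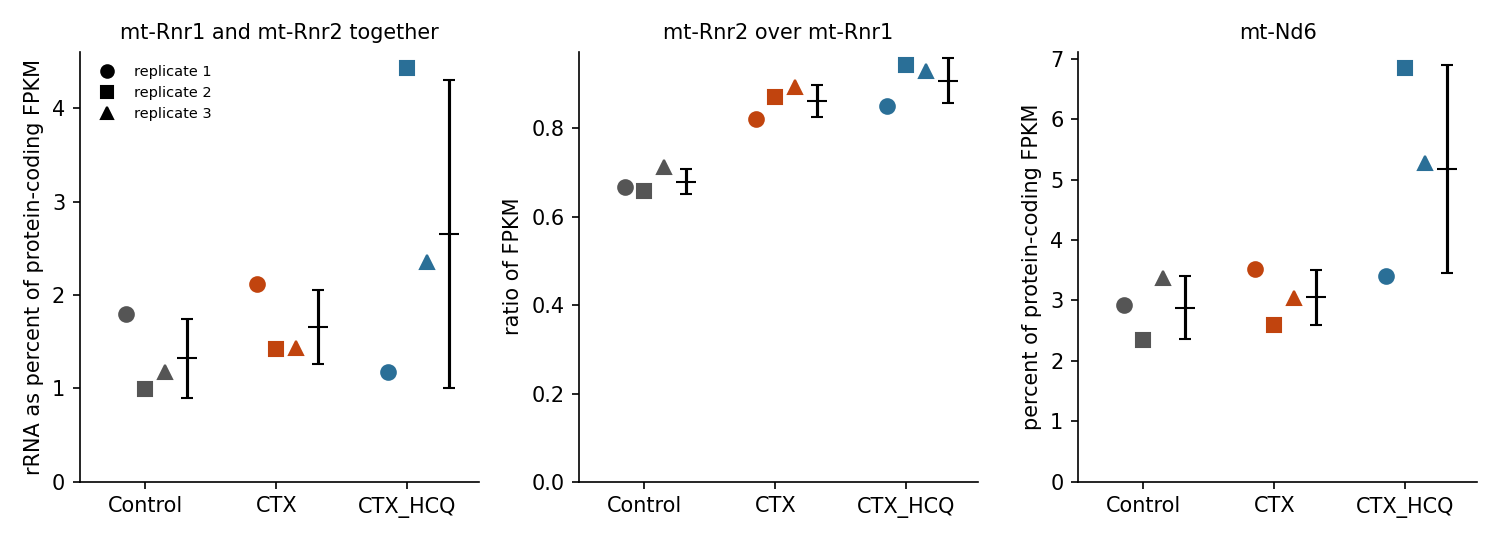
Ribosomal RNA as percent of protein-coding FPKM, the ratio of mt-Rnr2 to mt-Rnr1 FPKM, and mt-Nd6 as percent of protein-coding FPKM, by library, with black bars for the group mean ± SD (n = 3). The mt-Rnr2 to mt-Rnr1 ratio is 0.658 to 0.711 in Control and 0.822 to 0.944 in the other libraries, and CTX_HCQ replicate 2 is the highest point in the outer panels.

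The transfer RNA genes are named for the amino acid they carry, and 17 of 22 passed the filter on low values. The other 5 (mt-Td, mt-Tf, mt-Tk, mt-Ts1 and mt-Tv) held at most 2 reads in any library, and mt-Tf held 0 in all 9. With genes of 59 to 75 bases, small read numbers give large FPKM, and the whole class held 1273 to 4168 reads per library. Its share of summed FPKM was 0.771%, 0.477% and 0.510% in Control, 0.826%, 0.651% and 0.997% in CTX, and 0.387%, 0.585% and 0.852% in CTX_HCQ, with overlap in each comparison (exact permutation p = 0.2, 0.3 and 1). The genes highest in FPKM that the text turns to are printed here, 5′ to 3′, with mt-Tl1 beside them for its absence in a single library.
mt-Tp: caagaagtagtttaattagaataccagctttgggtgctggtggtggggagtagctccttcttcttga
mt-Tl2: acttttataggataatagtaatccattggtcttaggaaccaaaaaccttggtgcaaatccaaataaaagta
mt-Tc: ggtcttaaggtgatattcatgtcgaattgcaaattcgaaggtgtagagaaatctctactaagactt
mt-Tl1: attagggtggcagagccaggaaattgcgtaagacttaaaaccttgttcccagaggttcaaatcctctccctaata

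The most abundant transfer RNA gene was mt-Tp, for proline, which lies on the light strand at the end of the coding region. It stood at 1263, 785 and 816 FPKM in Control, 1684, 1166 and 2351 in CTX, and 687, 581 and 961 in CTX_HCQ, and was the only transfer RNA gene lower in every CTX_HCQ than in every CTX library (4.57% of all tested genes). Its difference there was -1.20 (SE 0.38, adjusted p = 0.710, limma). It made up 52.5% to 62.4% of the transfer RNA FPKM in 7 libraries, 45.8% in CTX_HCQ replicate 3 and 30.2% in CTX_HCQ replicate 2. The 8 light-strand transfer RNA genes together held 72.7% to 82.7% of the transfer RNA FPKM in 8 libraries and 51.3% in CTX_HCQ replicate 2. In that library mt-Tl2, a leucine transfer RNA of the heavy strand, reached 587 FPKM against 121 to 371 in the others. Unless the libraries kept strand, reads of the light-strand genes cannot be told from antisense RNA, as for mt-Nd6.

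Next in level were mt-Tc (95.0 to 472 FPKM over all libraries), mt-Ty (27.2 to 144) and mt-Te (25.6 to 196), for cysteine, tyrosine and glutamate, all on the light strand and all with overlapping groups. The mt-Te gene held 29 reads in CTX replicate 3 against 119 and 117 in the other CTX libraries. The mt-Tl1 gene, for leucine and placed directly after mt-Rnr2, held 0 reads in CTX replicate 3, which with 3 reads as the limit of a count of 0 lies under the 16 to 57 reads of the other 8 libraries. CTX replicate 3, the library with the largest share in each class but the ribosomal RNAs, was thus low in these 2 genes, while its mt-Tc was the highest of all libraries.

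No transfer RNA gene passed by limma in any comparison. For CTX against Control, 3 of 17 were at an unadjusted p under 0.05 (7.80% of all tested genes), and 3 were higher in every CTX library (mt-Tm, with at most 5 reads, mt-Tn and mt-Tw, against 8.72% of tested genes) and mt-Tq lower (against 11.0%). The gene mt-Tq had the smallest p of the class, but rested on 2, 2 and 3 reads in Control, 0 in each CTX library and 3, 0 and 4 in CTX_HCQ, so all groups are at about the limit of counting and no fold is given. It passed with library weights only (adjusted p = 0.0369, limma). The tryptophan gene mt-Tw stood at 11.4, 11.6 and 6.34 FPKM in Control, 18.6, 36.9 and 25.4 in CTX, and 7.20, 23.1 and 33.1 in CTX_HCQ, from 7 to 42 reads (CTX against Control 1.36, SE 0.48, adjusted p = 0.639). For CTX_HCQ against CTX, 4 of 17 were at an unadjusted p under 0.05 (5.44% of all tested genes), and for CTX_HCQ against Control 0 were (2.16%). In the latter comparison mt-Tw and the threonine gene mt-Tt, which held 0 to 7 reads, had the smallest p.

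Nuclear genes that work with the mitochondrial genome were read from the same fit, and none passed by limma. Of 11 genes of mitochondrial transcription, 8 had a positive difference for CTX against Control (median 0.14) and 6 for CTX_HCQ against CTX (median 0.07), with 0 at an unadjusted p under 0.05 in each. Of 20 tested genes of RNA cleavage, polyadenylation and decay, 9 were positive for CTX against Control (median -0.05) and 10 for CTX_HCQ against CTX (median 0.01). Their lowest p for CTX against Control belonged to Ptcd1, at 9.38 ± 0.786 FPKM in Control and 6.62 ± 1.30 in CTX (adjusted p = 0.639, limma). For CTX_HCQ against CTX it belonged to Pnpt1, the polynucleotide phosphorylase that degrades mitochondrial RNA. Pnpt1 stood at 15.3 ± 2.52 FPKM in Control, 20.03 ± 1.62 in CTX and 13.6 ± 1.69 in CTX_HCQ (SD, n = 3), with an adjusted p of 0.748 by limma. Of the nuclear subunits that complete the complexes, positive for CTX against Control were 8 of 9 in complex I (median 0.29), 6 of 6 in III (0.27), 9 of 9 in IV (0.46) and 7 of 9 in V (0.27), beside 3 of 4 in complex II (0.12), which has no mitochondrial subunit. For CTX_HCQ against CTX all 37 of these genes were negative, with medians of -0.31, -0.26, -0.59, -0.27 and -0.21 in the same order. Of all tested genes 52.1% were positive there. Each of these subunit genes had its lowest value of the 9 libraries in CTX_HCQ replicate 3, the library of lowest depth and lowest summed FPKM. Cox4i1 stood at 251, 473 and 153 FPKM in CTX_HCQ against 397, 266 and 334 in CTX, with overlap. Cox7a2 stood at 69.1, 64.2 and 45.4 against 139, 99.9 and 115, without overlap. How many of the 37 signs rest on CTX_HCQ replicate 3 was not tested. The lists were read only from the fit that includes that library. The mitochondrial genes had medians of 0.77 and -0.98 beside them.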

How the data were processed

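The study's deposited table gives FPKM for 9 RNA libraries, 3 per group. Reads were trimmed with fastp 0.23.2, aligned with HISAT2 2.0.5 and counted with featureCounts 1.5.0-p3 on GRCm39, per the submitters' processing notes, and the authors deposited FPKM, which scale with a library's total and with gene length. Poly-T beads were used for purification, per the labels' protocols. For the strand setting and reads with several matches, nothing is given in the sources used here.

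Each library's FPKM was used as deposited. The 14431 genes that reached FPKM 1 in 3 or more of the 9 libraries were fitted on log2(FPKM + 1) with limma 3.58.1 (R 4.3.3), with a mean per group and a trend, and p was adjusted over all tested genes at a threshold of 0.05. Class shares were compared by exact permutation over libraries, two-sided, where 20 splits of 3 against 3 exist. Reads were recovered as FPKM times exon length times library size and counted as whole within 0.02 reads (94.1% of tested genes). These reads, with 13367582 to 17131824 per library, went into limma's voom as an alternative. The fits and the recovery of reads were tested on simulated data. Nuclear copies were found with blastn 2.17.0 among GENCODE M21 transcripts (GRCm38); no coordinates are given, since that build differs from the authors' build. Counting limits cover counting error only.

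All 13 protein-coding and both ribosomal RNA genes are named. Of the transfer RNA genes, the 5 of highest mean FPKM and, in each comparison, the 2 of smallest p are named, together with nuclear copies and up to 4 genes of each nuclear list. Other transfer RNA genes named (mt-Tl1 and those that held no or few reads or did not overlap) were chosen after their values were seen. The genes and lists were chosen with earlier results of these data known. Alternatives were other pseudocounts, filters and scalings, library weights, voom, fits of only the compared groups, replicate blocks and leaving out each library.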

Additional observations from a re-analysis of the deposited data

How the results depend on the processing

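No protein-coding gene of the mitochondrial genome was called in any comparison under any of the alternatives, including those that left out 1 library. Over all genes, library weights in limma gave 648, 1 and 1 calls for CTX against Control, CTX_HCQ against CTX and CTX_HCQ against Control, and leaving out 1 library gave 0 to 13, 0 to 10 and 0, with the highest counts without Control replicate 1. The ribosomal RNA share of CTX_HCQ minus CTX reversed to -0.0354 with a denominator without the other classes, to -0.0134 in recovered reads and to -0.119 as a log2 share, and leaving out 1 library gave -0.0782 to 0.1001. The transfer RNA share of CTX_HCQ minus Control ran from -0.1001 to 0.132 when 1 library was left out. For CTX_HCQ against CTX, leaving out 1 library gave -0.53 to 0.21 for mt-Nd6, -0.88 to 0.11 for mt-Rnr1 and -0.83 to 0.23 for mt-Rnr2, and quantile normalization gave 0.29 for mt-Nd6 and 0.051 for mt-Cytb. With library weights mt-Tw for CTX_HCQ against Control was -0.043. The cause of these reversals was not tested. Scaling to equal nuclear FPKM moved the median of all genes to 0.11 in CTX_HCQ against CTX and gave the protein-coding genes a median of -0.87 there and 0.71 in CTX against Control. With the replicate number as a block, limma called 0 genes in each comparison, with 847, 668 and 293 at an unadjusted p under 0.05; the numbers only name libraries, since same-numbered libraries correlated at -0.46 to 0.14 in their deviations and 0 of 9 libraries were closest to their own number. Depth limits the transfer RNA genes and mt-Atp8 most, as their read numbers show.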

Other observations

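A further nuclear sequence, Gm13340, matched mt-Co1 over all 1545 bases at 97.6% identity, lower than the copies compared above. It stood at 2.67, 1.55 and 1.61 FPKM in Control, 2.89, 1.67 and 7.80 in CTX, and 1.56, 1.18 and 1.69 in CTX_HCQ. CTX replicate 3, the library with the most mt-Co1, was also its highest, whereas the near-identical Gm29216 was lower there than in the other CTX libraries.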
